A study of Mus musculus with 12 samples.

Results

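The subunits of the constitutive proteasome were described across small bowel of male C57BL/6 mice, aged 8 to 10 weeks, around ileocecal resection, the surgical removal of the end of the ileum and the cecum. They are the genes whose symbols are Psma, Psmb, Psmc or Psmd followed by a number, without the inducible subunits Psmb8, Psmb9 and Psmb10. This rule found 36 of the 35791 genes counted, 16 of the 20S core (Psma1 to Psma8, Psmb1 to Psmb7 and Psmb11) and 20 of the 19S cap (Psmc1 to Psmc6 and Psmd1 to Psmd14). There were 12 RNA-seq libraries, 3 in each of 4 groups. Pre control was bowel labelled as taken before resection from mice without a supplement, and Pre 2'-FL the same for the arm given 2'-fucosyllactose, a human milk oligosaccharide. Post control and Post 2'-FL were bowel labelled as taken 8 weeks after resection, without and with the supplement. Per the labels, the supplement was given at 2.5 g/L and began on the day of resection, so what the Pre 2'-FL mice had received is not clear. Both arms were fed a liquid diet after the operation and later standard chow. The same age range is given for all 12 libraries, so the age at collection is not clear. Pre and Post bowel may differ in age and diet as well as in resection, and these cannot be told apart here. The protocol puts the collection of all bowel at 8 weeks, which 6 Pre libraries contradict by name, and each library was used as its own label names it. The labels give no segment of the bowel and do not say whether libraries come from separate mice, so p-values measure only the spread between these libraries.

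The proteasome is the protease that degrades most ubiquitin-tagged proteins of the cell. Its 20S core is a barrel in which outer rings of alpha subunits (Psma genes) gate the entrance and inner rings of beta subunits (Psmb genes) cut the substrate. The 19S cap holds a ring of ATPases (Psmc genes), which unfold the substrate and open the gate, and non-ATPase subunits (Psmd genes), which bind ubiquitin chains, remove them or hold the particle together. The subunits are needed in fixed proportions, and the transcription factor encoded by Nfe2l1 is known to raise many of their genes together when proteasome activity falls short. The bowel lining renews quickly and relies on proteasomal breakdown of proteins like other dividing tissue.

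Totals ran from 5663275 to 9385266 counts per library. Levels are given as CPM, counts scaled to a common library size, with sizes adjusted by TMM, a method that balances libraries over most genes. One count corresponded to between 0.100 and 0.189 CPM. Across 12654 tested genes with a known transcript length, levels followed length. Spearman's rho between length and level relative to the gene's mean lay between 0.26 and 0.50 in the 6 Pre libraries and between -0.60 and -0.44 in Post 2'-FL. Post control 1 and 2 gave -0.035 and -0.21. Post control 3, at 0.35, lay among the Pre libraries. The members are short. Their median transcript length was 1526.5 nucleotides (nt), 1162.5 nt in the core and 1710.5 nt in the cap, beside 3036.5 nt over all tested genes. For this reason changes are given a second time with length and GC content corrected, which brought rho to between -0.019 and 0.026 in every library. The correction removes any change that follows length, whatever its source.

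Markers of cell types moved with the groups too. All 11 epithelial markers were present, with a summed level of 16139 to 33193 CPM in the Pre groups, 33769 to 44096 CPM in Post control and 50489 to 62012 CPM in Post 2'-FL. The 6 smooth muscle markers summed to 714 to 1680 CPM in the Pre groups, to 502 to 779 CPM in Post control and to 1290 to 1539 CPM in Post 2'-FL. The 6 endothelial markers summed to 21.2 to 133 CPM in the Pre groups and to 14.0 to 21.6 CPM in Post 2'-FL, and 6 of 6 fell in the 2'-FL arm. Of the epithelial markers 3 rose and 1 fell in that arm. In the control arm 0 of 11 were called, where 4.42% of all tested genes rose and 6.33% fell. Between the Post groups 1 of the 11 was called higher and 3 lower, where 18.8% and 19.3% of all genes were. Their median log2 change there was -0.24, so the sum does not stand for each marker. Of the tested fat markers 3 of 4 fell in the 2'-FL arm, and of the neuron and glia markers 3 of 5. Of 6 T cell markers 1 rose and 1 fell, and of 6 myeloid markers 0 rose and 2 fell. Over all tested genes 25.3% rose and 30.0% fell in that arm. With length and GC corrected, 4 endothelial, 3 fat and 3 neuron and glia markers were called lower there (14.7% of all genes). So were 2 myeloid, 1 T cell and 1 smooth muscle marker. Of the epithelial markers 2 were then called higher (21.3% of all genes) and 0 lower, and of the smooth muscle markers 1 was called higher. Between the Post groups 3 of 6 smooth muscle markers were called higher as tested (18.8% of all genes), and 3 of 6 corrected (10.4% of all genes). The 6 B and plasma cell markers found summed to 276 to 1012 CPM in the other groups and to 1197 to 1992 CPM in Post 2'-FL. Of these 2 rose and 0 fell in the 2'-FL arm, with a median log2 change of -0.20. Of 6 pancreatic acinar markers, 3 were at 0 in all libraries. The part of cell types in the results below was not tested. In bulk tissue, fewer cells of a type and less RNA per cell cannot be told apart.

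Of the 36 members, 34 passed the filter on low counts and were tested, and each of these was at 15.2 CPM or more in every library. Psma8, the alpha subunit of the testis, and Psmb11, the catalytic subunit of the thymic cortex, did not pass. Psma8 was at no more than 0.241 CPM in any library, and Psmb11 at no more than 0.406 CPM. For comparison, 3 counts stand for 0.300 to 0.567 CPM, depending on the library.

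Levels were set per length to compare genes. In Pre control, the mean level per 1000 nt of transcript had a median of 82.9 CPM over the 14 tested core members and of 40.2 CPM over the 20 tested cap members. The core ran from 26.4 (Psma3) to 119.9 CPM per 1000 nt (Psmb6) and overlapped the cap, whose highest member was Psmc5 at 73.2. Psma3 has a long and a short annotated transcript (2846 and 859 nt), and the long one sets that value. Psmd5, which encodes a chaperone of cap assembly rather than a subunit of the finished particle, was lowest of all at 5.63 CPM per 1000 nt. In Post 2'-FL the medians were 184 CPM per 1000 nt in the core and 62.1 in the cap, and the highest member was Psma7 at 471.

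The upstream sequences of 4 members that stand out in the results are shown as description, and no result below rests on them. Psmb5 and Psmb6 encode catalytic subunits, and Psma7 and Psmd14 had the largest changes of the core and of the cap. In the GENCODE annotation of GRCm38, Psmb5 lies at chr14:54614119-54618022, Psmb6 at chr11:70525367-70527858, Psma7 at chr2:180036374-180042433 and Psmd14 at chr2:61711694-61800376. Each sequence holds the 250 bases before the RefSeq transcript start (build GRCm38.p6), from 5′ to 3′ on the gene's strand. Psmb5 is read at chr14:54617996-54618245 (minus strand), Psmb6 at chr11:70525107-70525356 (plus strand), Psma7 at chr2:180042465-180042714 (minus strand) and Psmd14 at chr2:61711444-61711693 (plus strand). Capitals mark matches to TGANNNNGC, the core of the element bound by NFE2L1 and NFE2L2 with small MAF proteins, searched on both strands.
Psmb5: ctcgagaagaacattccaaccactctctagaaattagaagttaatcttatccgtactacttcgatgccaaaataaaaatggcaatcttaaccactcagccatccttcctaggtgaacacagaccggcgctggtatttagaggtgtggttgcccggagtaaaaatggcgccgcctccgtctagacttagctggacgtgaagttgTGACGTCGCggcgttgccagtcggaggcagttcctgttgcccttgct
Psmb6: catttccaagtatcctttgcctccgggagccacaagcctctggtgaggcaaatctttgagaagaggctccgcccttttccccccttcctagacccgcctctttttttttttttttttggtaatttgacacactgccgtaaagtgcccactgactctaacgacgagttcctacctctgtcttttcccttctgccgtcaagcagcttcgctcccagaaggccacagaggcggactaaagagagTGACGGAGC
Psma7: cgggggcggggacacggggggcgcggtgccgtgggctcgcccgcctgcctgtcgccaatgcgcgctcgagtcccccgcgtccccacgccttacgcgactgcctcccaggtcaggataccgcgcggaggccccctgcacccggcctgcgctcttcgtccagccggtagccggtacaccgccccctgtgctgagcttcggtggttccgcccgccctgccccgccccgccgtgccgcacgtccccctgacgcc
Psmd14: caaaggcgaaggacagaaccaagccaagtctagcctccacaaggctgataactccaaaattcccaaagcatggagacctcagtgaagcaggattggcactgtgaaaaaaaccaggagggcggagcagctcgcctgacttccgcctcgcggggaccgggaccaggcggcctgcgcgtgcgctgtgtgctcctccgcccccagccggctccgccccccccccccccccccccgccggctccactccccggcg

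Psmb5 held 1 match, TGACGTCGC, which begins 47 bases before the start, and Psmb6 held TGACGGAGC, which begins 9 bases before it. Psma7 and Psmd14 held none. The table used covers 31 promoters of 29 members, and 13 of the 31 (41.9%) held a match, 7 of 13 in the core and 6 of 18 in the cap. Among all 32851 promoters of that length 35.2% held one. CCAAT, the box bound by NF-Y, was found in 12 of 31 member promoters (38.7%) and in 33.8% of all promoters. TGANTCA, the AP-1 site, which can overlap the first motif, was found in 1 of 31 (Psmd9) and in 6.75% of all.

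The 3 constitutive catalytic subunits rose in the 2'-FL arm. Psmb6 encodes the subunit that cuts after acidic residues. It was counted at 93.9, 93.4 and 99.6 CPM in Pre control, 86.8, 82.4 and 88.7 CPM in Pre 2'-FL, 125, 138 and 98.0 CPM in Post control and 277, 212 and 265 CPM in Post 2'-FL. All 3 Post 2'-FL libraries stood above the other 9, and Post control 3 lay among the Pre libraries. Its log2 change from Pre to Post in the 2'-FL arm was 1.55 ± 0.18 (adjusted p = 3.78e-05), a 2.92-fold rise, by edgeR's quasi-likelihood test with Benjamini-Hochberg adjustment over all 13154 tested genes. Errors of changes are standard errors (SE), and genes with an adjusted p under 0.05 are spoken of as called. With length and GC corrected the change was 0.70 and was still called.

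Psmb7, the subunit that cuts after basic residues, was counted at 78.6, 71.6 and 82.1 CPM in Pre control, 74.7, 75.4 and 68.5 CPM in Pre 2'-FL, 96.0, 113 and 83.3 CPM in Post control and 218, 158 and 187 CPM in Post 2'-FL. Post control lay just above both Pre groups without overlap and Post 2'-FL well above all. By edgeR it changed by 1.36 ± 0.18 (adjusted p = 5.98e-05) in the 2'-FL arm, and by 0.36 corrected (adjusted p = 0.0491), a call lost when any single library was left out. Psmb5, the subunit that cuts after hydrophobic residues and the main target of the drug bortezomib, was counted at 58.4, 55.3 and 62.3 CPM in Pre control and 58.2, 55.4 and 53.3 CPM in Pre 2'-FL. It stood at 67.2, 83.8 and 54.5 CPM in Post control, which overlapped both Pre groups, and at 144, 124 and 170.0 CPM in Post 2'-FL, above every other library. Its change in the 2'-FL arm was 1.39 ± 0.19 (adjusted p = 6.89e-05) in edgeR, and 0.65 corrected, also called.

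**Figure D1:**
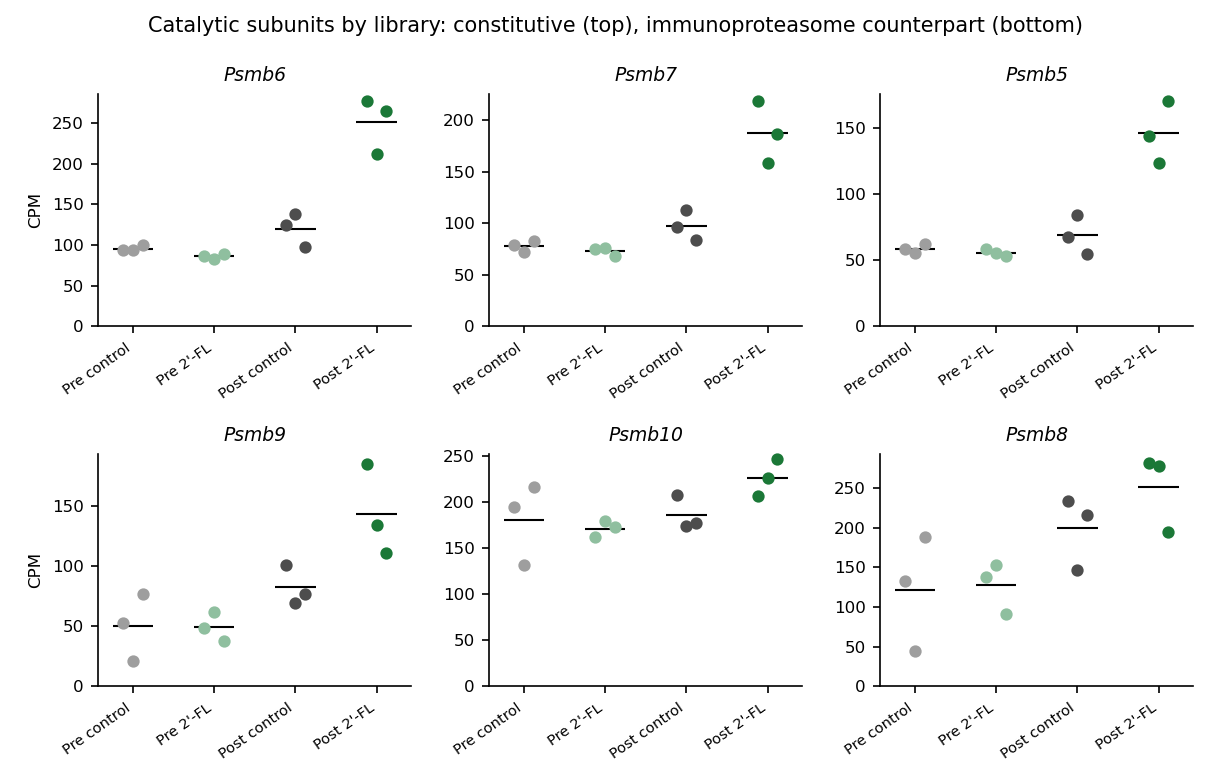
Level in CPM (vertical axis, from 0) of the constitutive catalytic subunits Psmb6, Psmb7 and Psmb5 (top) and of the immunoproteasome subunits that replace them, Psmb9, Psmb10 and Psmb8 (bottom), by group. Each point is 1 library and each line the mean of 3; the 3 Post 2'-FL points of the top genes stand above the other 9 libraries, and of the bottom genes Psmb9 alone shows this.

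In the 2'-FL arm, 14 of 14 tested core members and 15 of 20 tested cap members rose and 1 cap member, Psmd2, fell. This makes 29 of 34 members called higher, where 25.3% of all tested genes were, and 1 of 34 called lower, where 30.0% of all genes were. The median log2 change was 1.41 in the core and 0.62 in the cap, beside -0.13 over all tested genes. In 30 of 34 members the 3 Post 2'-FL libraries all stood above the 3 Pre 2'-FL libraries, as they did in 27.9% of all genes. Of the 29, 25 were called whichever single library was left out, among them all 14 of the core.

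Among the alpha subunits, Psma7 changed most. It was counted at 91.9, 78.8 and 83.3 CPM in Pre control, 89.7, 77.7 and 71.7 CPM in Pre 2'-FL, 159, 164 and 109.9 CPM in Post control and 563, 329 and 399.8 CPM in Post 2'-FL. The Pre groups overlapped, Post control lay above both and Post 2'-FL above all, with Post 2'-FL 1 highest. In edgeR its change in the 2'-FL arm was 2.43 ± 0.23 (adjusted p = 2.96e-05), or 5.40-fold, and 1.42 with length and GC corrected. Psma6 was counted at 94.0, 105 and 91.7 CPM in Pre 2'-FL and at 429, 260.3 and 351 CPM in Post 2'-FL. This is a change of 1.84 ± 0.20 (adjusted p = 3.14e-05) in edgeR, corrected to 0.57, with no overlap of the groups.

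Psma3 went from 76.4, 86.8 and 67.2 CPM to 317, 172 and 229 CPM in this arm, a change of 1.64 ± 0.22 (adjusted p = 6.90e-05) in edgeR. Its corrected value depends on which transcript is taken, at 1.05 with the long one and 0.17 with the short one, the second not called. Psma5 went from 65.2, 77.6 and 70.7 CPM to 305, 164 and 177 CPM, a change of 1.60 ± 0.23 (adjusted p = 9.25e-05) in edgeR, corrected to 0.66. Post 2'-FL 1 was the highest library in both genes. Psma4 had the smallest rise of the core. It stood at 122, 127 and 126 CPM in Pre 2'-FL and 295, 197 and 218 CPM in Post 2'-FL, without overlap, and its change of 0.92 ± 0.18 (adjusted p = 0.000763) in edgeR turned to -0.39 (adjusted p = 0.0375) when corrected. That lower call was lost when any single library was left out. Psma1 and Psma2 rose by 1.25 and 1.52, and the non-catalytic beta subunits Psmb1, Psmb2, Psmb3 and Psmb4 by 1.32, 0.97, 1.33 and 1.44. When corrected, Psma2 and Psmb4 kept the call, Psmb1 kept it in the full set and in 1 of 6 fits without a library, and Psma1, Psmb2 and Psmb3 did not.

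In the cap, Psmd14, the deubiquitinase that removes the ubiquitin chain from the substrate, changed most. It was counted at 60.6, 55.4 and 62.7 CPM in Pre control, 55.3, 56.5 and 53.0 CPM in Pre 2'-FL, 80.2, 87.4 and 78.0 CPM in Post control and 317, 152 and 168 CPM in Post 2'-FL. Post 2'-FL 1 stood far above the other libraries of its group, and all 3 stood above every library of the other groups. The change in the 2'-FL arm was 1.95 ± 0.24 (adjusted p = 4.65e-05) in edgeR, or 3.86-fold, and 0.71 corrected, still called. Psmd10 (gankyrin), a chaperone of the ATPase ring, went from 17.9, 16.5 and 16.7 CPM to 78.7, 43.4 and 51.1 CPM. Its change of 1.76 ± 0.22 (adjusted p = 5.11e-05) in edgeR was 0.37 corrected and then not called.

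Of the 6 ATPases 5 rose, with a median change over the 6 of 0.50. Psmc6 stood at 71.6, 79.1 and 75.5 CPM in Pre 2'-FL and 287, 127 and 145 CPM in Post 2'-FL, where the first library was far above the others. Its change was 1.31 ± 0.26 (adjusted p = 0.000796) in edgeR and -0.089 corrected, not called. Psmc3 rose by 0.82 and was still called when corrected, at 0.56. Psmc4 rose by 0.62, and Psmc1 and Psmc5 by 0.38 and 0.38. These last 3 were not called when corrected, and the calls of Psmc1 and Psmc5 held in 2 of 6 fits without a library. Psmc2, at 0.34 ± 0.15, was not called (adjusted p = 0.0781 in edgeR, 0.0200 in DESeq2, which called it).

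The non-ATPase subunits spread most widely. Psmd8 and Psmd13, both subunits of the lid, rose by 1.12 and 1.09 and were still called when corrected, at 0.68 and 0.98. The cap-assembly chaperones Psmd9 and Psmd5 rose by 0.96 and 0.63, the call of Psmd5 held in 3 of 6 fits without a library, and their corrected values were larger, at 1.20 and 1.02. Without the 3 chaperones Psmd5, Psmd9 and Psmd10, the median over the other 11 non-ATPase members was 0.60, and 7 of 11 rose. Psmd6, Psmd7 and Psmd12, further lid subunits, rose by 0.89, 0.60 and 0.55, and Psmd4, a ubiquitin receptor, by 0.70. None of these 4 was called when corrected.

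Psmd2, a large scaffold subunit of the cap, was the 1 member that fell. It stood at 132, 130.2 and 117 CPM in Pre control, 129, 142 and 111 CPM in Pre 2'-FL, 108, 102 and 123 CPM in Post control and 76.0, 87.3 and 94.6 CPM in Post 2'-FL. Post 2'-FL lay below every other library, and the 3 other groups overlapped. Psmd2 fell by 0.57 ± 0.17 on the log2 scale in the 2'-FL arm (adjusted p = 0.0106 in edgeR). The call was lost without Pre 2'-FL 1 (-0.49), without Pre 2'-FL 2 (-0.40), in a fit of the compared groups alone (-0.51), with length alone corrected (-0.34) and with length and GC corrected (-0.22). Psmd1, the second large scaffold, was at -0.43 ± 0.18 and was not called (adjusted p = 0.0602 in edgeR), although its Post 2'-FL libraries, at 52.8, 59.8 and 58.2 CPM, lay below its Pre 2'-FL libraries, at 85.9, 76.6 and 66.8 CPM. Psmd3 and Psmd11, at -0.28 and -0.045, were not called and their groups overlapped. The Post 2'-FL libraries lay wholly below Pre 2'-FL in 2 of 34 members, as in 33.7% of all genes.

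**Figure D2:**
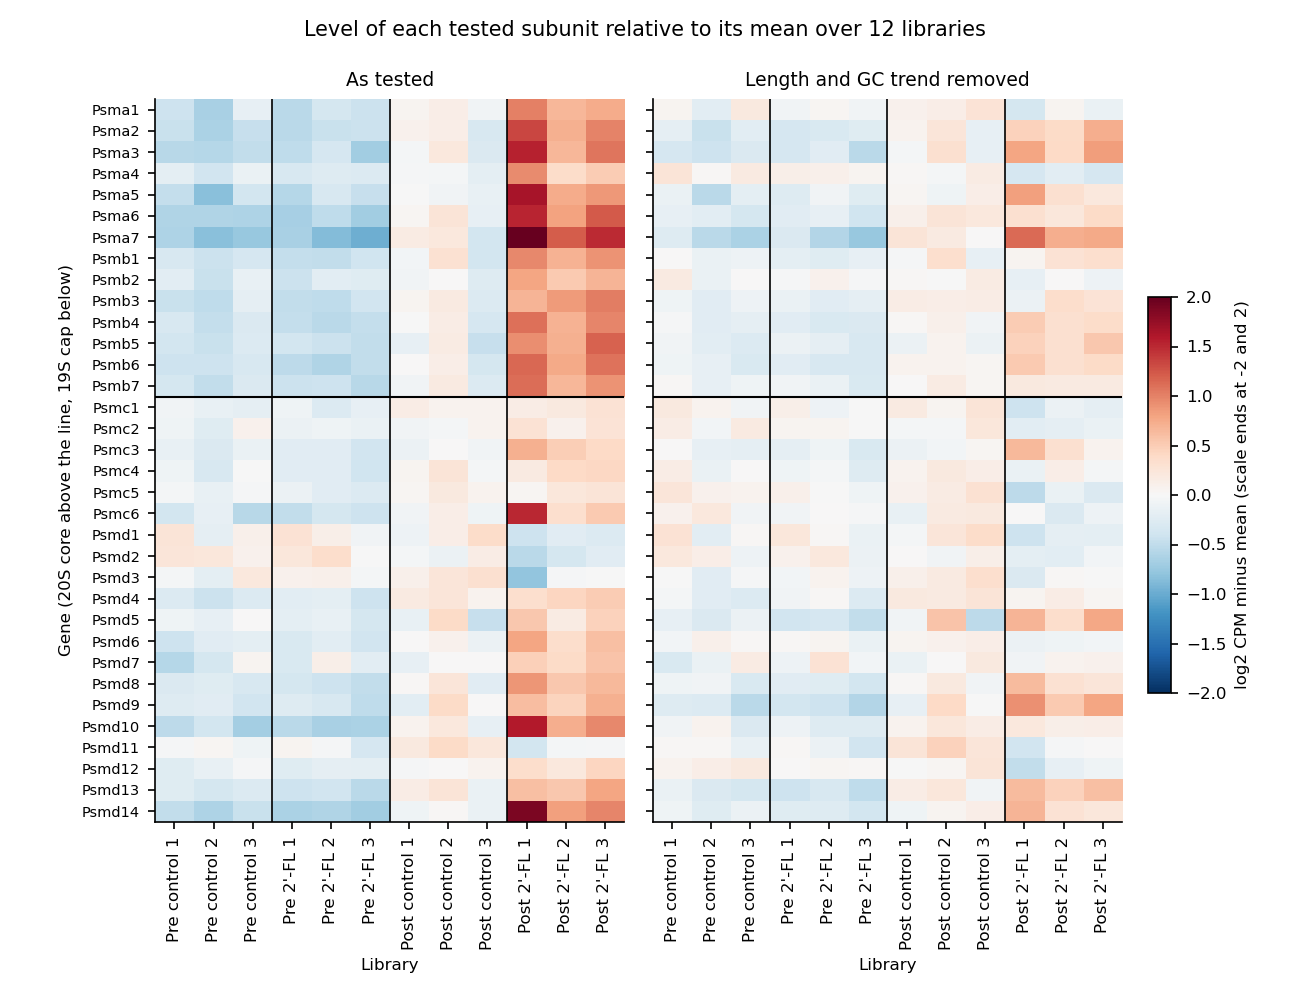
Level of each of the 34 tested members (rows) in each of the 12 libraries (columns), as log2 CPM minus the member's own mean over the 12, as tested (left) and with the trend on length and GC content removed (right). As tested, the Post 2'-FL columns are high in all 14 core rows and in most cap rows; with the trend removed the differences are smaller and rows such as Psma7, Psma3, Psmd9 and Psmd13 stay high there.

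With length and GC corrected, the rise in the 2'-FL arm was smaller. Then 16 of 34 members were called higher (21.3% of all tested genes were), 10 of 14 in the core and 6 of 20 in the cap, and all 16 belong to the 29 called before. Psma4 alone was called lower (14.7% of all genes). The median change was 0.61 in the core and 0.0030 in the cap, beside 0.020 over all tested genes. When the shortest transcript of a gene was used in place of the longest, 10 of 14 core and 7 of 20 cap members were called higher (22.6% of all genes), and the medians were 0.58 and 0.17. Whether core and cap differ was not tested. Across the 34 members, Spearman's rho between length and change was -0.49 as tested and -0.010 corrected. Over the 12654 tested genes with a length it was -0.56 and -0.049, and the genes of a library share its depth and its length trend. Within the core alone rho was 0.099 as tested (n = 14). The corrected calls in the cap were Psmc3, Psmd5, Psmd8, Psmd9, Psmd13 and Psmd14.

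Members of similar length were set side by side as values. Between 1000 and 1800 nt there were 7 core and 11 cap members, with median lengths of 1183 and 1512 nt. Their log2 changes in the 2'-FL arm ran from 0.92 (Psma4) to 1.84 (Psma6), median 1.36, in the core, and from 0.34 (Psmc2) to 1.95 (Psmd14), median 0.70, in the cap. Corrected, they ran from -0.39 (Psma4) to 0.67 (Psmb4), median 0.43, in the core, and from -0.31 (Psmc5) to 0.71 (Psmd14), median 0.12, in the cap. The ranges overlap on both scales.

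**Figure D3:**
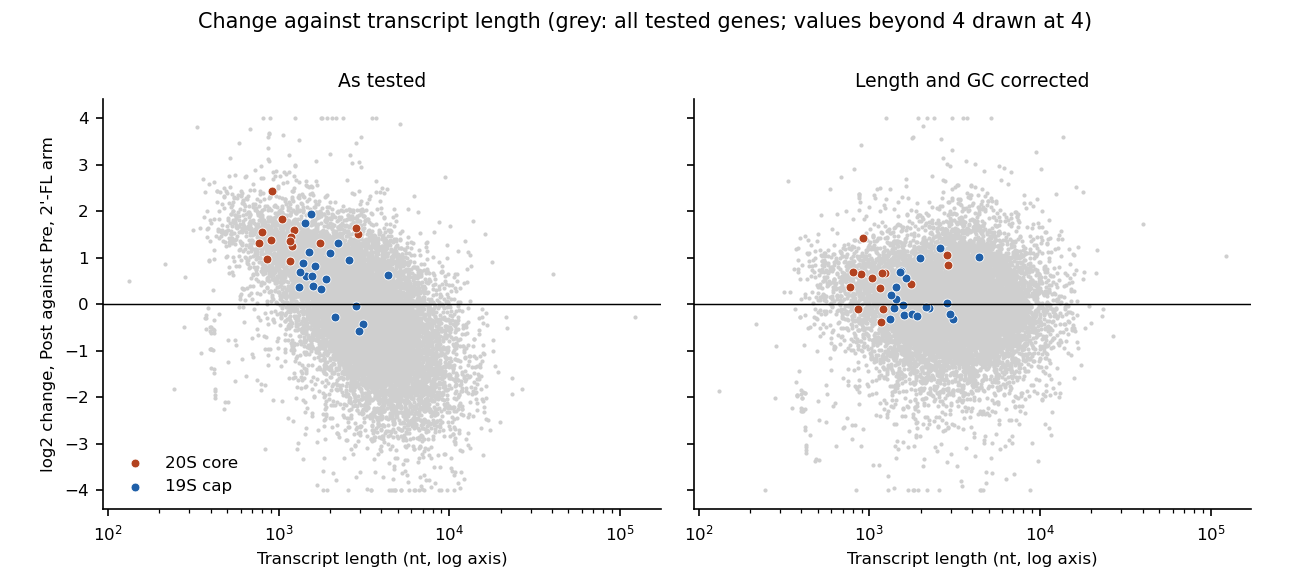
Log2 change from Pre to Post in the 2'-FL arm (vertical axis) against transcript length (horizontal log axis, nt) for all tested genes with a length (grey) and for members of the core (red) and cap (blue), as tested (left) and corrected (right). As tested, short genes lie higher than long ones and most members lie in the short range; corrected, the slope is gone, with core members from -0.39 to 1.42 and cap members from -0.31 to 1.20.

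In the control arm the members moved little. Psma6 and Psma7 rose, which is 2 of 34 called higher where 4.42% of all tested genes were, and 0 of 34 were called lower where 6.33% of all genes were. Psma7 stood at the Pre control and Post control levels given above, a change of 0.77 ± 0.22 (adjusted p = 0.0409) in edgeR, and 0.62 corrected, also called, though in 2 of 6 fits without a library. Psma6 went from 97.9, 98.5 and 97.3 CPM to 153, 178 and 134 CPM, without overlap. Its change was 0.66 ± 0.20 (adjusted p = 0.0456) in edgeR and 0.43 corrected (adjusted p = 0.0533), not called. Both calls rest on the exact set of libraries. No member was called without Pre control 1, 2 or 3 or without Post control 1 or 2, and 3 were without Post control 3 (Psma6, Psma7 and Psmd4). Over all genes the higher calls of these fits ran from 141 to 772.

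The log2 change in this arm was above 0 in 33 of 34 members as tested, and in 6138 of 13154 genes, with a median of 0.36 in the core and 0.22 in the cap beside -0.048 over all tested genes, and Psmd2 alone was below, at -0.19 ± 0.17. Post control lay wholly above Pre control in 20 of 34 members, as in 17.3% of all genes. By unadjusted p, 8 of 34 members were under 0.05, as were 3889 of 13154 genes. Psmb6, Psmb7 and Psmb5 were at 0.33 ± 0.18, 0.33 ± 0.18 and 0.22 ± 0.19 and were not called. Corrected, Psma7 was the 1 member of 34 called higher (7.72% of all genes) and 0 were called lower (4.96% of all genes). DESeq2 called 3 members higher (7.12% of all genes) and 0 lower.

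**Figure D4:**
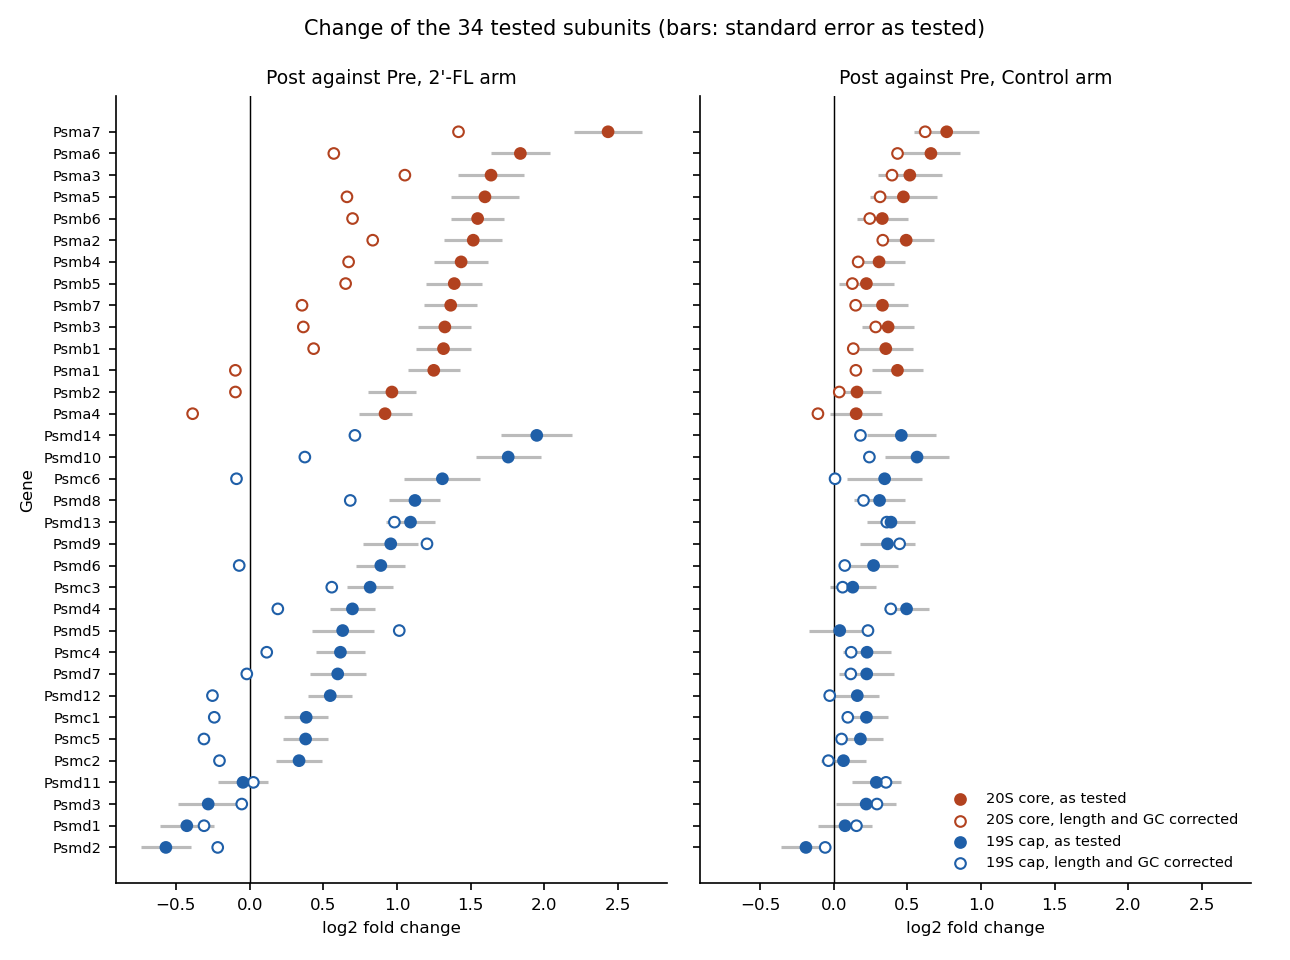
Log2 fold change from Pre to Post (horizontal axis) of each of the 34 tested members in the 2'-FL arm (left) and the control arm (right). Filled points are values as tested with their standard error as bars, open points values with length and GC corrected; in the 2'-FL arm core members (red) reach 2.43 as tested and 1.42 corrected, while in the control arm no member exceeds 0.77.

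After resection, most members stood higher with 2'-FL than without before length and GC were corrected. Of 34 members, 23 were called higher, where 18.8% of all tested genes were, and 0 were called lower, where 19.3% of all genes were. All 14 tested core members rose, with a median of 1.02, and 9 of 20 cap members, with a median over the cap of 0.38, beside 0.017 over all tested genes. The Post 2'-FL libraries lay wholly above Post control in 27 of 34 members, as in 25.2% of all genes. Psma7 differed by 1.58 ± 0.22 (adjusted p = 0.000789), Psmd14 by 1.37 ± 0.24 (adjusted p = 0.000973) and Psma5 by 1.22 ± 0.23 (adjusted p = 0.00138) in edgeR. Psma6 and Psma3 followed at 1.16 and 1.16. The catalytic Psmb5, Psmb6 and Psmb7 differed by 1.09, 1.06 and 0.95, each called whichever library was left out.

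In the cap, Psmd10, Psmc6 and Psmd8 were next to Psmd14, at 1.10, 0.89 and 0.68. The 11 cap members not called ran from -0.46 (Psmd1) to 0.44 (Psmd5), and in Psmd1, Psmd2, Psmd3 and Psmd11 the Post 2'-FL libraries all lay below Post control, which is 4 of 34 members where 25.4% of all genes did so. Corrected, 6 of 34 members were called higher (10.4% of all genes), namely Psma7 at 0.74, Psmd9 at 0.66, Psma3 at 0.64, Psmb5 at 0.50, Psma2 at 0.48 and Psmd13 at 0.46. Psmc5 alone was called lower, at -0.49 (11.4% of all genes). These corrected calls depend on single libraries. Leaving out Post 2'-FL 1 or Post control 3 left 0 of them, leaving out Post control 1 left 1, and leaving out Post 2'-FL 3 left 2. Of all genes, 450 to 1656 were called higher when corrected in the 6 fits that leave out a library. Psma3 was at -0.050 with its short transcript. The corrected median was 0.26 in the core and -0.16 in the cap, beside 0.0018 over all tested genes. Corrected changes were above 0 in 19 of 34 members, and in 6593 of 13154 genes. This comparison shares the Post 2'-FL libraries with the one within the 2'-FL arm.

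Before resection the arms did not differ beyond the spread of the libraries in any member. In edgeR 0 of 34 were called and 0 had an unadjusted p under 0.05, where 0.0152% of all tested genes were called (2 genes), and DESeq2 called 0 members too. The changes ran from -0.16 ± 0.16 (Psmd13) to 0.15 ± 0.19 (Psmd7). Psmb5, Psmb6 and Psmb7 were at -0.076 ± 0.19, -0.15 ± 0.18 and -0.088 ± 0.18. In Psmb4, Psmb6, Psmd8 and Psmd13 the Pre 2'-FL libraries all lay below the Pre control libraries by a small margin, which is 4 of 34 members where 4.91% of all genes did so.

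Whether the change differed between the arms was tested as an interaction term, in which a positive value means a larger rise with 2'-FL. As tested, 17 of 34 members were called higher (7.47% of all genes) and 0 lower (8.03% of all genes). They are 13 of 14 core members, all but Psma4, and the cap members Psmc3, Psmd8, Psmd10 and Psmd14. The median over the core was 1.08 and over the cap 0.39. Psma7 was at 1.67 ± 0.31 (adjusted p = 0.0160), Psmd14 at 1.49 ± 0.33 (adjusted p = 0.0166) and Psmb6 at 1.22 ± 0.25 (adjusted p = 0.0162) in edgeR. Without Post control 3 the count was 5, without Pre control 3 or Pre 2'-FL 3 it was 8, and 11 without Post 2'-FL 3. Higher calls over all genes moved too, to 264, 498, 562 and 580 in the same order, from 982. Of the members Psma7, Psmb4, Psmb5, Psmb6 and Psmd14 were called in all 12 such fits.

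With length and GC corrected, edgeR called 0 of 34 members for the interaction, and 0% of all 13154 genes. With the shortest transcript it called 0 members and 1.01% of all genes. At an unadjusted p under 0.05 there were 12 members and 2638 genes with the longest transcript. Corrected values were 0.80 ± 0.25 for Psma7, 0.78 ± 0.32 for Psmd5, 0.76 ± 0.26 for Psmd9 and 0.53 ± 0.19 for Psmb5. The core had a median of 0.32 and the cap of -0.14, or 0.40 and 0.0053 with the shortest transcript. DESeq2, without the correction, called 21 members higher (10.4% of all genes) and 0 lower.

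The balance of core and cap was summarised per library as the mean log2 CPM of the 14 tested core members minus that of the 20 tested cap members. Pre control gave 0.58, 0.48 and 0.62, and Pre 2'-FL gave 0.51, 0.55 and 0.64. Post control gave 0.81, 0.79 and 0.53, while Post 2'-FL gave 1.56, 1.24 and 1.37. The 3 Post 2'-FL libraries stood above the other 9, and Post control 3 lay with the Pre libraries. Group means were 0.56 ± 0.07, 0.56 ± 0.07, 0.71 ± 0.15 and 1.39 ± 0.16 (SD, n = 3). With the trend on length and GC removed the values were 0.74, 0.63 and 0.74, then 0.72, 0.70 and 0.76, then 0.84, 0.78 and 0.71, and in Post 2'-FL 1.05, 1.00 and 1.03. The Post 2'-FL libraries remained the 3 highest, by a smaller margin. With the shortest transcript of each gene they ran from 0.97 to 0.98, against 0.66 to 0.82 in the other 9. No p is given for this score, since it sums over members chosen together.

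**Figure D5:**
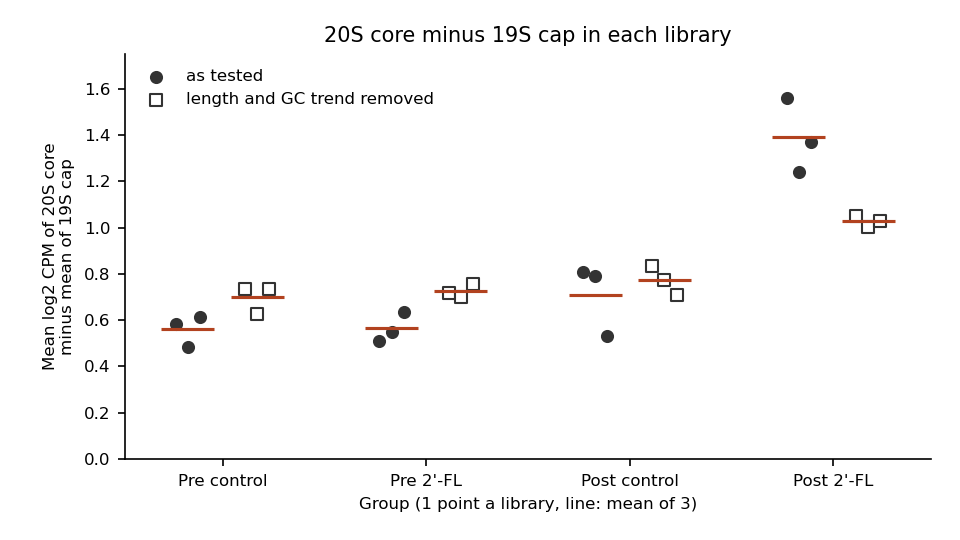
Mean log2 CPM of the 20S core minus that of the 19S cap (vertical axis) in each library by group, as tested (filled circles) and with the trend on length and GC removed (open squares), with the mean of 3 libraries as a line. The Post 2'-FL libraries lie between 1.24 and 1.56 as tested and between 1.00 and 1.05 with the trend removed, above the other 9 on both scales.

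The immunoproteasome subunits, which replace the catalytic 3 on interferon signals, were counted beside them. Psmb9 stood at 48.2, 61.5 and 37.4 CPM in Pre 2'-FL and 185, 134 and 111 CPM in Post 2'-FL, without overlap. It rose by 1.55 ± 0.36 (adjusted p = 0.00251) in edgeR, 1.09 corrected and still called, though in 3 of 6 fits without a library. Psmb8 rose by 0.98 ± 0.39 (adjusted p = 0.0427) in this arm, with 137, 153 and 90.7 CPM and 281, 278 and 195 CPM. That call held in 2 of 6 fits with a library left out and was lost when corrected (0.76). Psmb10 was at 0.41 ± 0.19 and was not called by edgeR (adjusted p = 0.0893), but was by DESeq2 (adjusted p = 0.0332). In the control arm, between the Post groups and between the Pre groups neither tool called any of the 3. In Pre control they varied widely, with Psmb8 at 133, 44.4 and 188 CPM.

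As log2 ratios within a library, Psmb10 over Psmb7 had a mean of 1.19 ± 0.28 in Pre control, 1.23 ± 0.11 in Pre 2'-FL, 0.94 ± 0.28 in Post control and 0.28 ± 0.31 in Post 2'-FL (SD, n = 3). Psmb9 over Psmb6 had means from -1.11 to -0.55, and Psmb8 over Psmb5 from 0.78 to 1.53, with ranges that overlapped between groups. The Psmb10 and Psmb7 pair was the one whose Post 2'-FL values, from -0.076 to 0.52, lay below every other library. With the trend on length and GC removed they ran from 0.67 to 0.74 and overlapped Post control, at 0.54 to 1.04.

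Genes that build and modify the proteasome were taken from lists of the pathway. Their counts in the 2'-FL arm stand beside 25.3% of all genes called higher and 30.0% lower. Of 5 tested chaperones of core assembly, 4 rose in the 2'-FL arm. Pomp, the maturation factor of the beta rings, stood at 111, 98.2 and 115 CPM in Pre control, 89.8, 108 and 114 CPM in Pre 2'-FL, 169, 225 and 156 CPM in Post control and 423, 279.9 and 322 CPM in Post 2'-FL. Both Post groups lay above both Pre groups. It rose by 1.71 ± 0.21 (adjusted p = 4.41e-05) in the 2'-FL arm (1.03 corrected, called) and by 0.76 ± 0.20 (adjusted p = 0.0319) in the control arm in edgeR, the second call held in 1 of 6 fits with a library left out. Psmg4, Psmg3 and Psmg1, chaperones of the alpha ring, rose by 1.76, 1.16 and 0.92 in the 2'-FL arm, of which Psmg4 was still called when corrected, at 0.73, though in 2 of 6 fits without a library. Psmg2 was at 0.23 and was not called, but was called lower when corrected, at -1.02.

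Of 5 regulators that bind the core, 2 rose and 2 fell in the 2'-FL arm. Psme1 and Psme2, which form the interferon-induced activator PA28, rose by 1.03 and 1.61, and Psme2 stayed called when corrected, at 0.71. Psme3, the nuclear activator, and Psmf1, an inhibitor of the core, fell by 0.64 and 0.58, the first still called when corrected (-0.54), but not with its shortest transcript (-0.39). Psme4 was at -0.28 and was not called. Of 6 cap-associated genes outside the rule, 1 rose, the cap subunit Shfm1, by 1.20, and 0 fell. Corrected, 2 of 6 were called lower, Shfm1 (-0.58) and Uchl5, a deubiquitinase of the cap (-1.02), and 2 higher, Ube3c and AI314180 (0.43 and 0.76). The calls of Shfm1 and Ube3c held in 2 and 1 of 6 fits without a library. In the control arm 0 of these 11 were called by edgeR and 1 by DESeq2, with 2 at an unadjusted p under 0.05 in edgeR.

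Of 7 genes that control proteasome transcription 2 rose and 2 fell in the 2'-FL arm, near the shares over all genes. Nfe2l1 stood at 77.1, 86.0 and 71.6 CPM in Pre control, 80.4, 86.1 and 72.7 CPM in Pre 2'-FL, 60.2, 61.0 and 82.3 CPM in Post control and 20.05, 37.8 and 30.3 CPM in Post 2'-FL. Post 2'-FL was below every other library, and Post control 3 lay with the Pre libraries. In edgeR Nfe2l1 changed by -1.44 ± 0.22 (adjusted p = 0.000153) in the 2'-FL arm, and by -0.41 corrected (adjusted p = 0.0530), not called, or -0.67 with its shortest transcript, called. Ddi2, the protease that activates its product, fell by 0.95 and was at 0.32 corrected, not called. Ngly1, which deglycosylates it, rose by 0.75 (0.41 corrected, not called), as did the small MAF gene Maff, by 0.81 (0.89 corrected, called). With its shortest transcript Maff was at 0.28 and not called, and its corrected call held in 1 of 6 fits without a library. Nfe2l2, Mafg and Mafk were not called. In the control arm Maff rose by 0.97 (in 1 of 6 fits without a library) and the other 6 were not called, while corrected Ddi2 alone was, at 0.77.

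Of the genes that supply and activate ubiquitin, Rps27a, which encodes ubiquitin fused to a ribosomal protein, rose by 1.79 in the 2'-FL arm, and Uba1, the main E1 enzyme that activates ubiquitin, fell by 1.33. Corrected, both were still called, at 0.53 and -0.55, each in 2 of 6 fits without a library. Of 10 genes for the unfoldase VCP, its cofactors and shuttle factors, 2 rose (Ufd1l and Faf1) and 5 fell. Vcp fell by 1.02 (-0.61 corrected, called) and Ubqln2, a shuttle factor, by 1.46 (-0.99 corrected, called). In the control arm Ubqln2 was the 1 of these 10 called, at -1.12 ± 0.28 (adjusted p = 0.0262 in edgeR), a call held in 2 of 6 fits without a library.

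These lists were also compared between the Post groups, which share the Post 2'-FL libraries with the 2'-FL arm. All 5 assembly chaperones rose, from 0.76 (Psmg2, called in 1 of 6 fits without a library) to 1.58 (Psmg4), and 0 of 5 were called when corrected by edgeR, with 3 at an unadjusted p under 0.05. Psme1 and Psme2 rose by 0.64 and 0.96 and Psme3 fell by 0.56, the last call held in 1 of 6 fits without a library. Nfe2l1 and Ddi2 each fell by 1.20 and Mafk by 0.96, and Nfe2l1 was at -0.53 corrected, still called, in 2 of 6 fits without a library. Rps27a rose by 1.79, while Uba1 fell by 1.06.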

How the data were processed

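RNA of 12 mouse small bowel samples, about 1.5 µg each, was made into libraries with a TruSeq kit and sequenced on an Illumina HiSeq, per the labels' protocols. The authors deposited 1 file per library of estimated counts per gene, and the values show no normalisation. The submitters' processing notes name DESeq and mm10. Aligner, counter, annotation and strand are not given in the sources used here. Of the entries of a library, 15.2% to 20.5% are not whole. Among the members at most 1 value per library lies over 0.5% from a whole number. Entries of a gene were summed over its places (486 entries belong to such genes, none to a member) and rounded. No 2 libraries of a group agreed within sampling noise.

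Genes were kept with filterByExpr by group in edgeR 4.0.16 (R 4.3.3), scaled by TMM, and tested by 1 quasi-likelihood fit with 4 group means over all 12 libraries (8 residual degrees of freedom, biological coefficient of variation 0.238). P-values are two-sided with Benjamini-Hochberg adjustment over 13154 genes. In the length and GC correction, centred log2 CPM (prior count 2) of each library was modelled by a natural spline of transcript length and another of GC (4 degrees of freedom each), and the fit entered as an offset. Length came from GENCODE for mm10, as the longest transcript of a gene matched to a curated RefSeq mRNA. The fit was also run on simulated counts, with the same spread for every gene, no length trend and changes in the control arm alone. That run could not check how well a length trend is removed. Alternatives were DESeq2 1.42.0, other scalings, no filter, the largest entry of a gene, length alone, each library left out, the groups compared alone and a replicate block. Chosen after seeing the data were the shortest transcript, leaving out libraries under the correction, the cap without its chaperones and members of 1000 to 1800 nt.

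The members, gene lists and tests were chosen with earlier results of these data known. Every tested member is accounted for. Given in full were Psmb5, Psmb6 and Psmb7 and, per comparison, the 4 largest called changes of core and cap, members called against the majority, the few of the rarer verdict, and the lowest and highest. Other genes were named for the smallest p-values in their list, up to 4 per list, and some genes of these lists are not reported here. The CPM given for 3 counts covers counting error alone.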

Additional observations from a re-analysis of the deposited data

Results flagged for a closer look

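In 17 members the change from Pre to Post was larger in the 2'-FL arm than in the control arm, by a test of the difference itself (interaction term, edgeR's quasi-likelihood test with Benjamini-Hochberg adjustment). On the log2 scale the alpha subunits were Psma1 at 0.82, Psma2 at 1.03, Psma3 at 1.12, Psma5 at 1.12, Psma6 at 1.18 and Psma7 at 1.67. The beta subunits were Psmb1 at 0.96, Psmb2 at 0.81, Psmb3 at 0.96, Psmb4 at 1.13, Psmb5 at 1.17, Psmb6 at 1.22 and Psmb7 at 1.03. In the cap these were Psmc3 at 0.69, Psmd8 at 0.81, Psmd10 at 1.19 and Psmd14 at 1.49. With length and GC corrected, 0 of the 17 and 0 of all 13154 genes were called, and 12 of 34 members had an unadjusted p under 0.05. Psma7, Psmb4, Psmb5, Psmb6 and Psmd14 were called in each of the 12 fits without 1 library. The source of the length trend was not tested.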

How the results depend on the processing

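Other scalings, DESeq2, no filter, the largest entry per gene, the compared groups alone and the replicate block kept the direction of every member's called change. No called change of a member reversed without a length correction. Changes not called could change sign when a library was left out. Psmd11 ran from -0.15 to 0.11 in the 2'-FL arm, and in the control arm Psmd5 from -0.19 to 0.24 and Psmd1 from -0.030 to 0.21. Counts of called members left 1.5 times the reported one as follows. In the control arm (2 reported) there were 1 with length and GC corrected, 1 with the shortest transcript, 0 with length alone and 0 with upper-quartile scaling. In the 2'-FL arm (30) there were 17, 17 and 18 with the same 3 corrections, between the Post groups (23) 7, 11 and 12, and for the interaction (17) 0, 0 and 0. Leaving out a library gave 0 to 3 calls in the control arm, 26 to 29 in the 2'-FL arm, 20 to 24 between the Post groups and 5 to 21 for the interaction. Over all genes the same fits gave 265 to 1588, 6215 to 7127, 3280 to 5384 and 424 to 3024. Under the correction these were 0 to 1, 13 to 15, 0 to 7 and 0 throughout, beside 480 to 1971, 3488 to 4640, 940 to 3398 and 0 to 897 over all genes. The source of the length trend was not tested.

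Core minus cap was 0.70, 0.72 and 1.03 with the trend removed in Pre control, Pre 2'-FL and Post 2'-FL, and 0.73, 0.75 and 0.97 with the shortest transcript. By medians over members it was 0.35, 0.32 and 0.55 in Pre control, Pre 2'-FL and Post control. The reported means are 0.56, 0.56, 0.71 and 1.39.

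Of the members called as tested or under the setting named, these reversed in direction. Members called in neither are not listed, and some of them changed sign too. As tested, changes were above 0 in 30 of 34 members in the 2'-FL arm, between the Post groups and for the interaction. With length and GC corrected they were above 0 in 21, 19 and 18 of 34, in the same order. In the 2'-FL arm they were, with length and GC corrected, Psma1 -0.10, Psma4 -0.39, Psmb2 -0.10, Psmc1 -0.24, Psmc5 -0.31, Psmc6 -0.089, Psmd6 -0.071, Psmd7 -0.019 and Psmd12 -0.25, with length alone Psmb2 -0.044, Psmc1 -0.13 and Psmc5 -0.31, and with the shortest transcript Psma4 -0.20, Psmc1 -0.058, Psmc5 -0.14 and Psmd12 -0.057. Between the Post groups they were Psma1 -0.30, Psma4 -0.35, Psmb2 -0.14, Psmc5 -0.49, Psmc6 -0.21 and Psmd6 -0.18, then Psmb2 -0.086, Psmb3 -0.052 and Psmc5 -0.48, and Psma1 -0.15, Psma3 -0.050, Psma4 -0.20, Psma6 -0.012, Psmc6 -0.084 and Psmd6 -0.042. For the interaction they were Psma1 -0.25 and Psmb2 -0.13, then Psmb2 -0.084 and Psmb3 -0.0014, and Psma1 -0.088 and Psma3 -0.071.

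Deviations from the group mean correlated at -0.23 to 0.42 between same-numbered libraries of different groups, and at -0.36 to 0.31 between the others. With 3 libraries per group this cannot settle whether the numbers mark the same mouse or batch, which the labels do not state. The replicate block is therefore given as an alternative. With the block alone 1 member was called in the control arm, 28 in the 2'-FL arm, 23 between the Post groups and 13 for the interaction. With the block and the length and GC correction, 1 was called in the control arm, 14 in the 2'-FL arm, 6 between the Post groups and 0 for the interaction. Under the block with that correction the members below, called as tested or in that fit, were reversed. Members called in neither are not listed. In the 2'-FL arm they were Psma1 -0.10, Psma4 -0.39, Psmb2 -0.10, Psmc1 -0.24, Psmc5 -0.31, Psmc6 -0.087, Psmd6 -0.070, Psmd7 -0.019 and Psmd12 -0.26. Between the Post groups they were Psma1 -0.30, Psma4 -0.35, Psmb2 -0.14, Psmc5 -0.49, Psmc6 -0.21 and Psmd6 -0.18. For the interaction they were Psma1 -0.25 and Psmb2 -0.13.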
